A study of Homo sapiens with 18 samples.

Results

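The 10 chemokine genes described here are CXCL1, CXCL2, CXCL3, CXCL5 and IL8 (also called CXCL8), which attract neutrophils, CXCL10 and CXCL11, which attract activated T cells, and CCL2, CCL5 and CCL20, which attract monocytes, T cells and other lymphocytes. They were chosen by name, as every non-control probe carrying one of these gene names on a human Agilent array, and were represented by 15 of the 41000 probes, or 10 of 30484 gene names. The RNA came from A549 cells, an established human lung adenocarcinoma line often used as a model of the alveolar epithelium. Cells were exposed for 2 h in serum-free medium to 0.02 mg/mL of Ludox amorphous silica nanoparticles (NPs), either SM30 with a diameter of 9 nm or AS30 with a diameter of 18 nm, and then recovered in complete medium for 3 h (SM30, AS30) or 22 h (AS30 alone). Each of these 3 treated groups had its own control group, taken through the same exposure and recovery without NPs, which gave 6 groups of 3 biological replicates lettered A, B and C, and 18 one-colour arrays. All groups therefore share the serum-free step and the return to complete medium, and SM30 was not measured at 22 h.

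Chemokines are small secreted proteins that guide leukocytes through G protein-coupled receptors. CXCL1, CXCL2, CXCL3, CXCL5 and IL8 carry a glutamate-leucine-arginine (ELR) motif and act on CXCR1 and CXCR2 of neutrophils, CXCL10 and CXCL11 are interferon-inducible and act on CXCR3, CCL20 acts on CCR6, and CCL2 acts on CCR2. In airway epithelium many of these genes are transcribed within hours of a stimulus through nuclear factor kappa B (NF-kB) and AP-1, and their mRNAs tend to be short lived.

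The promoters of the CXC members share a short sequence that NF-kB is known to bind, which is printed here because the ELR members among them had ratios above 0 in every pair after SM30. RefSeq promoter windows on build GRCh38.p14, from 250 bases before to 50 bases after the start of each gene, were found for 8 of the 10 members, while CCL2 and CCL5 had none in the table used. A kB-like motif, GGANNTTCC searched on both strands, was present once in 7 of these 8 windows, against 4.565% of the 35116 promoter windows searched in the same way. The 30-base stretches below read 5′ to 3′ along the gene, with the 9-base match in capitals and the position of the match counted from the start site.
CXCL1, chr4:73869305-73869334, plus strand, match from -78 to -70: tggaactccgGGAATTTCCctggcccgggg
CXCL2, chr4:74099253-74099282, minus strand, match from -77 to -69: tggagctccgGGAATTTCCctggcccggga
CXCL3, chr4:74038748-74038777, minus strand, match from -78 to -70: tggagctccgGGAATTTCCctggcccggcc
CXCL5, chr4:73998748-73998777, minus strand, match from -90 to -82: atgagttcagGGAATTTCCccagcatccca
IL8, chr4:73740468-73740497, plus strand, match from -91 to -83: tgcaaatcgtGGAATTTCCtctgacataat
CXCL10, chr4:76023654-76023683, minus strand, match from -176 to -168: aggagcagagGGAAATTCCgtaacttggag
CXCL11, chr4:76036126-76036155, minus strand, match from -75 to -67: actcaaagagGGAAATTCCtgtgccataaa
The 5 ELR members carry the same 9 letters, GGAATTTCC, whereas CXCL10 and CXCL11 carry GGAAATTCC. CCL20 had no match to these letters in its window, which says nothing about binding elsewhere or to other forms of the motif. An AP-1 motif (TGANTCA, both strands) was found in the windows of IL8 and CXCL11, against 7.709% of the windows searched. The core of an interferon-stimulated response element (GAAANNGAA, both strands) was found in those of CXCL2, CXCL3 and CXCL10, against 8.107% of the windows searched. No search letters of one motif contain those of another, and each match is a description of the window and not an observed binding site.

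**Figure D1:**
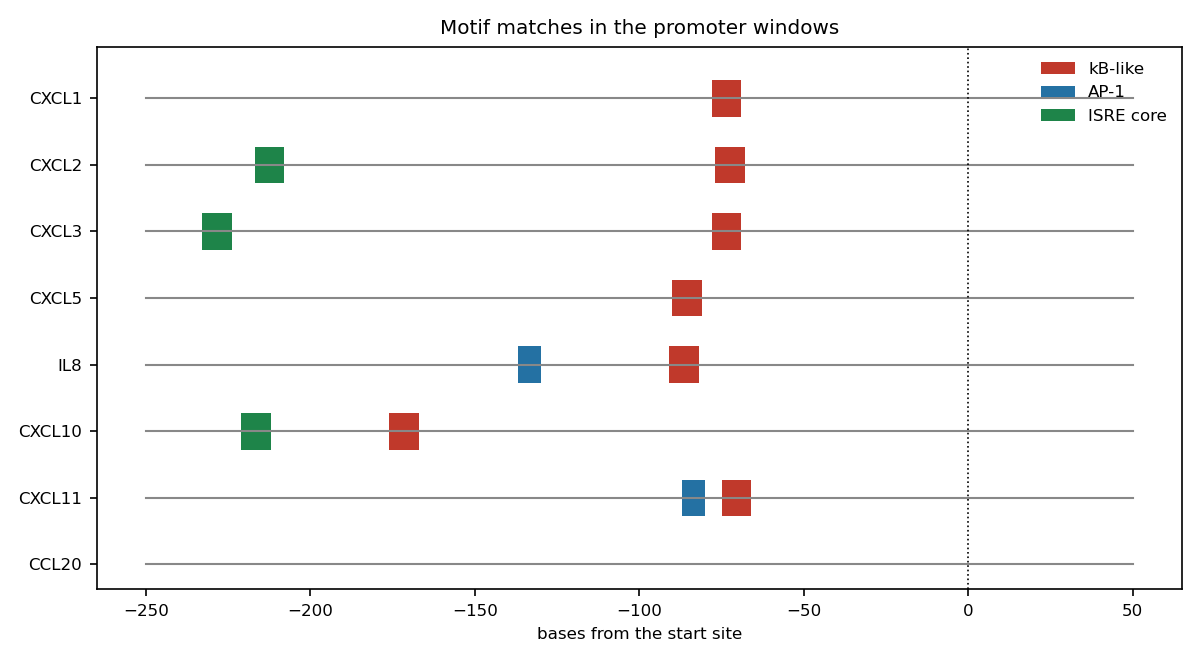
Motif matches along the RefSeq promoter windows (250 bases before to 50 after the start) of the 8 members that have one, in bases from the start site (dotted line at 0). Each coloured bar is 1 match to the kB-like, AP-1 or interferon-response letters, and the kB-like match of CXCL1, CXCL2, CXCL3, CXCL5, IL8 and CXCL11 lies between -91 and -67.

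The signal is the intensity of an array spot after the scanner software's background correction and quantile normalization over the 18 arrays, given on a log2 scale, and levels of different probes are not compared. Between 51.9% (22 h control B) and 72.4% (SM30 C) of the spots of an array were well above background, and no spot was saturated. Of the 15 member probes, 10 representing 7 genes passed the filter on spots that were not positive and significant, while the probes of CCL5, CXCL10 and CXCL11 and the second IL8 probe did not pass. The arrays lay on 5 slides. SM30 A shared a slide with the 3 SM30 controls, SM30 B and C lay alone on another, and the AS30 groups lay on the remaining 3 with 1 of the 22 h controls on each. AS30 and its 3 h controls were never on the same slide. Ratios are of a treated array over the control array of the same letter, and limma's moderated test on the 9 ratios, adjusted over all probes, called a probe at 0.05. Epithelial markers (KRT8, KRT18, KRT19, EPCAM, CDH1) were well above background on all 18 arrays for 5 of 5 genes. Among 10 leukocyte markers, PTPRC and CD3D were well above background on 0 arrays, whereas CD14, CD68, CD3E and CD79A were so on all 18. The mean log2 signal over the 10 leukocyte markers ranged from 5.747 to 5.999 in SM30 and from 5.49 to 5.62 in its controls, from 6.29 to 6.46 in AS30 at 3 h and from 5.75 to 6.23 in its controls, and from 6.12 to 6.53 against 5.90 to 6.25 at 22 h. Within this list CSF1R was called higher after SM30 (log2 ratio 1.41), CD68 was called higher 22 h after AS30 (1.67), and CSF1R was also called at 22 h, with 0 of 3 controls well above background. The part of these markers in the chemokine results was not tested. Of 5 stromal and endothelial markers, COL1A2, PDGFRB and PECAM1 were well above background on 0 arrays, COL1A1 on all 18 and VWF on 7.

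CCL20, the ligand of CCR6 on memory T cells, B cells and immature dendritic cells, was raised 3 h after both NPs and had the largest log2 ratio of the members. Its 60-base probe (A_23_P17065) covers chr2:228389344-228390080 on build hg18, a span of 737 bases, so that its match to the genome is split. The log2 signal was 9.26, 9.29 and 9.09 in SM30 A, B and C, against 5.88, 6.06 and 5.95 in their controls. Every treated array lay above every control array by more than 3 log2 units, and the 3 replicates of each group lay close together. The log2 ratio was 3.25 (SE 0.21, n = 3 pairs, 9.50-fold, limma adjusted p = 0.00143), the 29th highest of all probes tested. After AS30 the log2 signal was 7.20, 8.79 and 7.67, against 5.85, 6.35 and 5.61 in the controls. The groups again did not overlap, but the ratios of the pairs A, B and C were spread from 1.35 to 2.44 and 2.07. The mean was 1.95 (SE 0.21, n = 3, 3.87-fold, limma adjusted p = 0.0156), with control C not well above background. The size of both ratios depended on the background correction, since normexp correction of the mean signal gave 1.19 for SM30 and 0.63 for AS30, both still called (limma adjusted p = 0.00307 and 0.0465). The AS30 call was lost with no flag filter (0.0596), with the AS30 ratios at 3 h fitted alone (0.248) and without pair AS30 B (0.063), while the SM30 call was kept under each alternative that could test it.

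At 22 h CCL20 was close to the limit of the arrays in every sample. Considering all spots, the log2 signal was 4.59, 3.30 and 4.92 in AS30 A, B and C and 4.20, 3.57 and 3.25 in the controls. One treated array of 3 and 0 of 3 control arrays were well above background, so no ratio was tested and no fold is given. All 6 signals were below those of the 3 h controls. However, the dimmest signal well above background was 6.40 and 6.47 on 22 h controls A and B, so no order of levels is read.

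All 5 ELR chemokines lay above their controls after SM30, although only CXCL2 passed the test. IL8, the classical neutrophil attractant, was measured by probe A_32_P87013 (chr4:74828129-74828188, hg18, plus strand). Its log2 signal was 11.89, 11.69 and 11.65 in SM30 A, B and C, against 10.16, 10.28 and 10.10 in the controls. All 3 treated arrays lay above all 3 controls, with a log2 ratio of 1.57 (SE 0.59, n = 3, 2.96-fold) that did not pass the test (limma adjusted p = 0.143).

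CXCL2, a CXCR2 ligand encoded in the same chromosome 4 cluster, was read by 2 probes. Probe A_23_P315364 (chr4:75181849-75181908, hg18, minus strand) gave 13.26, 12.99 and 13.14 after SM30 and 11.75, 11.91 and 11.69 in the controls. Its log2 ratio of 1.35 (SE 0.31, n = 3, 2.54-fold, limma adjusted p = 0.038) was the second member probe called. Probe A_24_P257416 (chr4:75183206-75183265) gave 11.16, 11.29 and 11.26 against 9.84, 9.96 and 10.14. The groups did not overlap for either probe, and the second one had a similar ratio of 1.26 (SE 0.35) without passing the test (limma adjusted p = 0.0662). The call of the first probe was lost without SM30 A (0.144), B (0.131) or C (0.188), without AS30 A at 3 h (0.0609) or AS30 C at 22 h (0.0507), with slide as a fixed block (0.281) and with no flag filter (0.0746).

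CXCL3, whose sequence is close to those of CXCL1 and CXCL2 so that their probes may share transcripts, was also read by 2 probes. Probe A_24_P183150 (chr4:75121566-75121625, hg18, minus strand) gave 11.05, 10.85 and 10.60 after SM30 and 9.15, 9.41 and 9.59 in the controls. Probe A_24_P251764 (chr4:75121855-75122729, a split match over 875 bases) gave 10.95, 10.78 and 10.80 against 9.40, 9.54 and 9.85. Treated and control arrays were separated for both, with log2 ratios of 1.45 (SE 0.40, limma adjusted p = 0.0649) and 1.25 (SE 0.36, 0.0732, n = 3 pairs each).

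CXCL5, an epithelial neutrophil attractant, was read by A_23_P110204 (chr4:75081921-75081980, hg18, minus strand) and A_24_P277367 (chr4:75080762-75080821). The first probe gave 13.30, 13.07 and 12.98 after SM30 and 12.28, 11.87 and 11.89 in the controls, a log2 ratio of 1.11 (SE 0.41, n = 3, limma adjusted p = 0.14). The second gave 15.98, 15.52 and 15.93 against 15.24, 15.34 and 15.21, a log2 ratio of 0.55 (SE 0.37, n = 3, limma adjusted p = 0.399). Neither passed the test, although no treated array overlapped a control array for either probe. CXCL1 (A_23_P7144, chr4:74955714-74955773, hg18, plus strand), also known as GRO alpha, gave 14.30, 14.27 and 14.32 against 13.72, 13.91 and 13.74. Its separation was small and even over the 3 pairs, with a log2 ratio of 0.50 (SE 0.59, n = 3, limma adjusted p = 0.642).

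Of the 10 member probes tested after SM30, 2 were called, both higher, and 9 had a log2 ratio above 0 in all 3 pairs. The background was 7.49% of probes called in either direction and 4.35% called higher. The median log2 ratio over the member probes was 1.25, against -0.05 over all probes. Every treated array lay above every control array for 9 of 10 member probes, against 19.2% of all probes with 6 measured arrays. On the slide that SM30 A shares with the 3 controls, the difference of that array from the control mean was 3.29 for CCL20, 1.71 for IL8, 1.48 and 1.18 for CXCL2, 1.67 and 1.35 for CXCL3, 1.29 and 0.72 for CXCL5 and 0.51 for CXCL1, each in log2 and with no replicate of the treated array. For CCL2 this difference was -0.54.

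**Figure D2:**
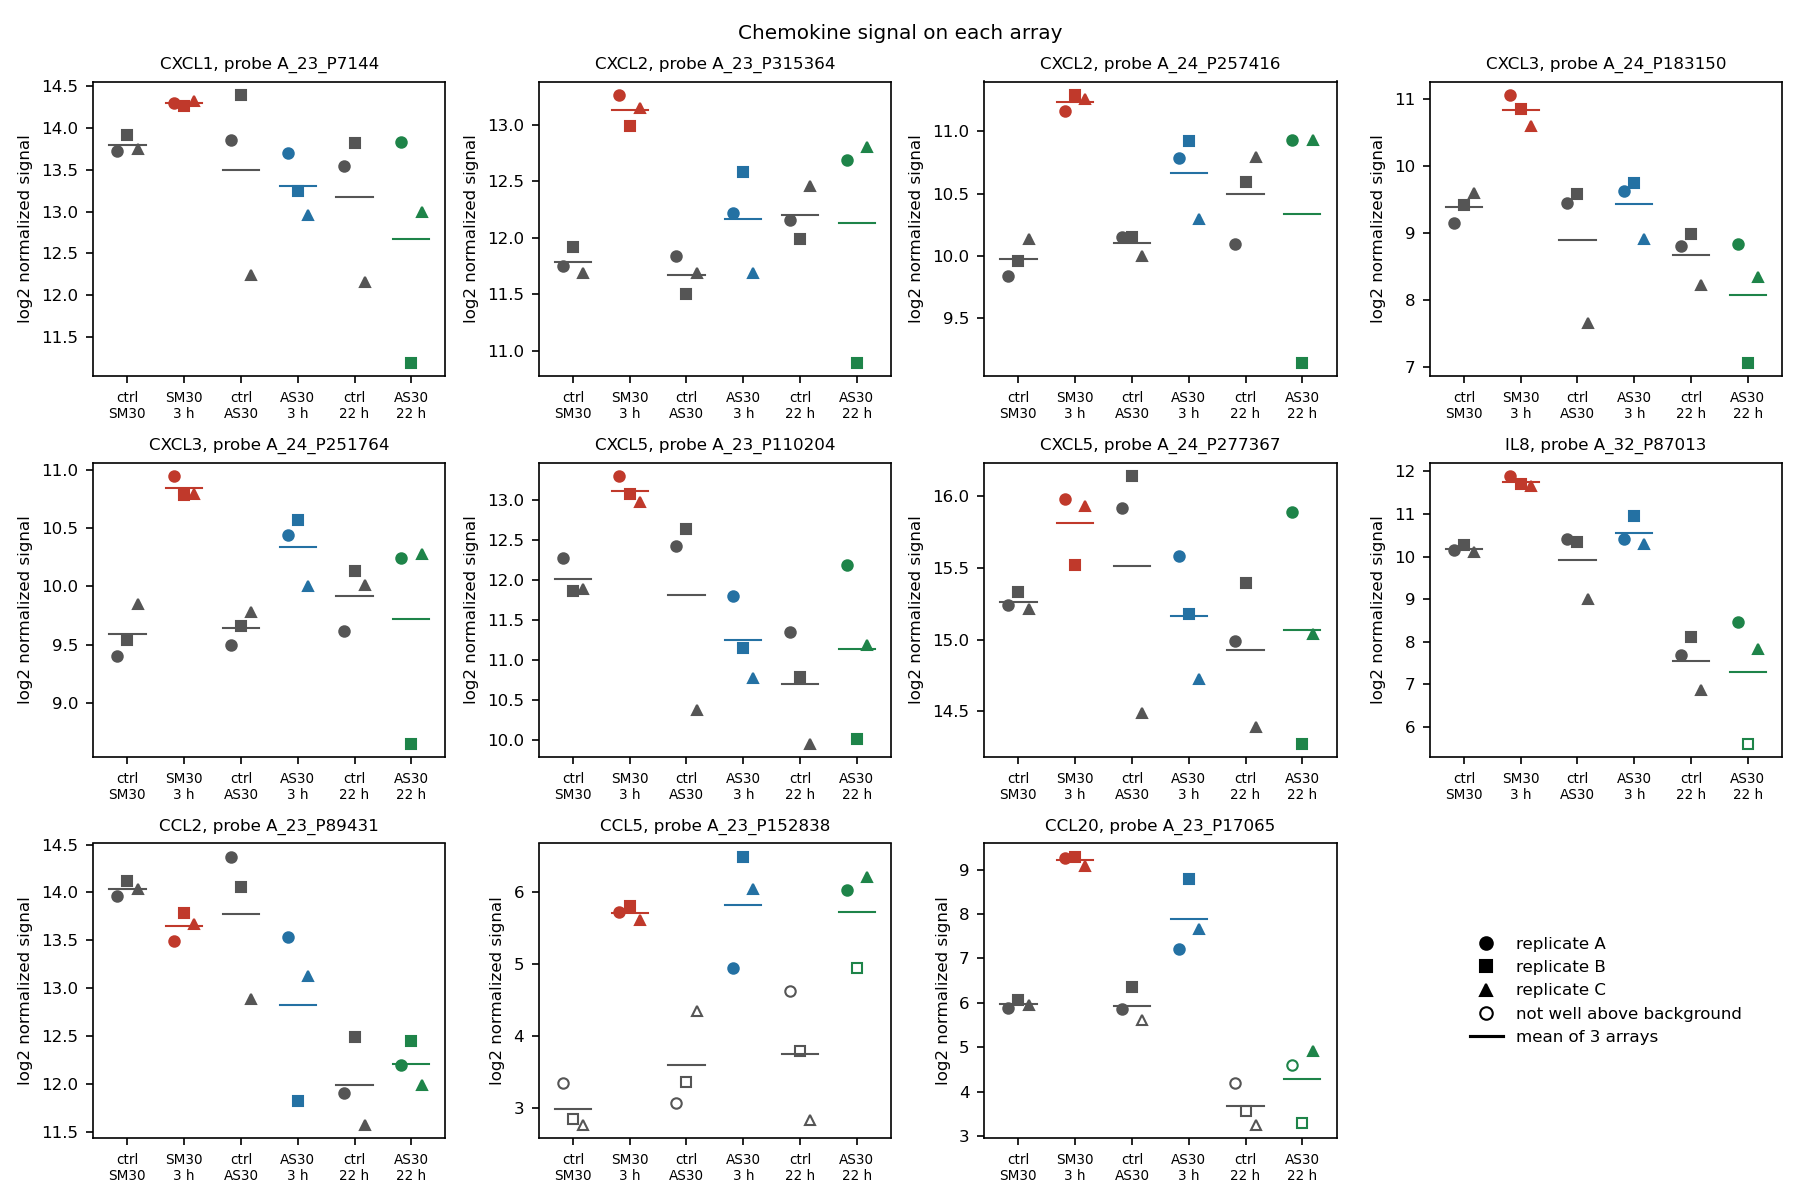
Log2 normalized signal of the 10 member probes tested and of the CCL5 probe, which was not tested, on each of the 18 arrays by group. There is 1 symbol per replicate letter, with open symbols for arrays not well above background and a line at the mean of 3 arrays. Where the filter left no value, the signal with all spots kept is drawn and enters the mean. SM30 arrays lie above their controls for 9 of the tested probes and below them for CCL2. The CCL20 signal at 22 h is drawn below the 3 h groups, with only AS30 C well above background.

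The standard errors above were shared over the 3 classes of ratios, and the ELR genes varied far more between replicates in the AS30 ratios than in the SM30 ratios. Over the 8 CXC probes, the median SD of the 3 ratios was 0.20 for SM30, 0.62 for AS30 at 3 h and 1.14 for AS30 at 22 h. The medians were 0.17, 0.24 and 0.25 over probes with all 9 ratios that were well above background on all 18 arrays. That set leaves out dimmer probes, such as that of IL8. With the SM30 ratios fitted alone, an alternative added after the data were seen, 7 of the 10 member probes were called after SM30, against 8.1% of all probes in that fit. These were CCL20 (SE 0.10, limma adjusted p = 0.0119), both CXCL2 probes (0.0205 and 0.017), both CXCL3 probes (0.0348 and 0.0282), CXCL5 A_23_P110204 (0.018) and IL8 (SE 0.11, 0.015), the ratios themselves being the same. Leaving out 1 of the 9 pairs gave 1 to 6 called member probes, and the 6 came without AS30 B at 22 h (7.96% of all probes called), with IL8 at SE 0.23 (limma adjusted p = 0.00966). CXCL1, the second CXCL5 probe and CCL2 were not called in either fit.

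**Figure D3:**
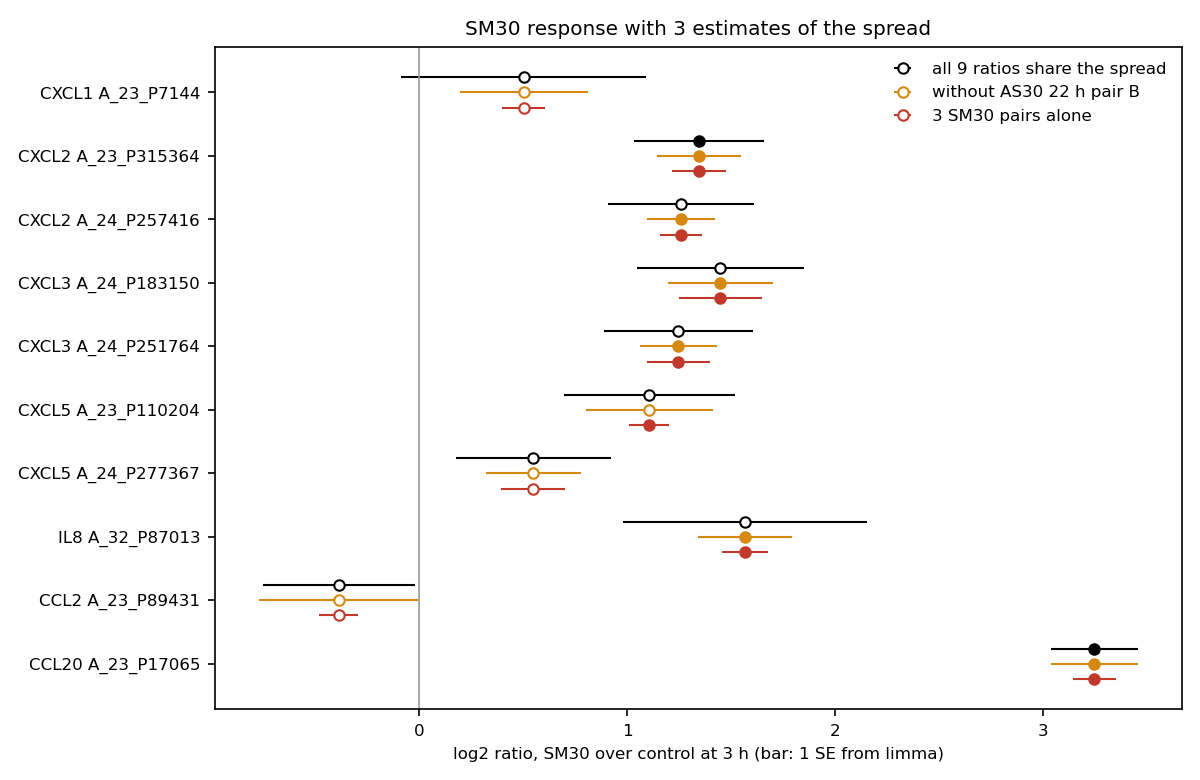
Log2 ratio of SM30 over control at 3 h for the 10 member probes, with bars of 1 SE from limma under 3 estimates of the spread (all 9 ratios, without the pair AS30 B at 22 h, SM30 ratios alone). Filled symbols are called at an adjusted p of 0.05, and the number called goes from 2 to 6 and 7 while the ratios stay in place.

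CCL2, a monocyte attractant, was the 1 tested member whose SM30 arrays lay below the controls. Its probe (A_23_P89431, chr17:29608163-29608222, hg18, plus strand) was printed as 10 spots on each array. The log2 signal was 13.50, 13.79 and 13.67 in SM30 A, B and C, against 13.96, 14.12 and 14.03 in the controls. Every treated array lay below every control array, as for 23.8% of all probes, and the log2 ratio was -0.39 (SE 0.37, n = 3, limma adjusted p = 0.552). The SD of the spots kept on an array was 0.06 at the median and 0.34 at most, and 3 spots on 3 arrays were left out as outliers. One of these was on SM30 B. With every spot kept the group means were 13.55 in SM30 and 14.04 in the controls.

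CCL20 was the 1 tested member called after AS30 at 3 h. Of the 10 member probes 1 was called, against 2.52% of all probes in either direction and 1.5% called higher, and 2 had an unadjusted p under 0.05, against 24.4% of all probes. The median log2 ratio over the members was 0.51, against 0.01 over all probes. Treated and control arrays were separated upwards for CCL20, CXCL2 A_24_P257416 and CXCL3 A_24_P251764, or 3 of 10 member probes, against 13.2% of all probes.

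IL8 gave 10.40, 10.95 and 10.30 after AS30 and 10.42, 10.34 and 9.00 in the controls. The treated arrays overlapped the controls, control C was the lowest, and the log2 ratio of 0.63 (SE 0.59, n = 3) was not called (limma adjusted p = 0.534). CXCL2 A_23_P315364 gave 12.22, 12.58 and 11.69 against 11.83, 11.50 and 11.69, a log2 ratio of 0.49 (limma adjusted p = 0.358). The second CXCL2 probe gave 10.79, 10.92 and 10.29 against 10.15, 10.15 and 10.00, a ratio of 0.56 (0.345). CXCL3 A_24_P251764 gave 10.44, 10.57 and 10.00 against 9.50, 9.66 and 9.78, a ratio of 0.69 (0.266). The arrays of these last 2 probes lay above every control, and neither probe was called under any alternative. CXCL3 A_24_P183150 gave 9.61, 9.74 and 8.91 against 9.44, 9.58 and 7.65, with both arrays of letter C low.

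The remaining tested members, CXCL1, CXCL5 and CCL2, were not higher on average after AS30 at 3 h. CXCL1 gave 13.70, 13.24 and 12.96 against 13.85, 14.39 and 12.24, a log2 ratio of -0.20 (SE 0.59, n = 3, limma adjusted p = 0.864). CXCL5 A_23_P110204 gave 11.80, 11.16 and 10.78 against 12.43, 12.64 and 10.37 (-0.57, SE 0.41, 0.418), and the other CXCL5 probe had a ratio of -0.35 (0.585). For these 3 probes the pairs A and B were below 0 and the pair C above 0, with control C lower than controls A and B by over 1 log2 unit. CCL2 gave 13.53, 11.83 and 13.13 against 14.37, 14.06 and 12.88. AS30 B was the lowest array, and the log2 ratio of -0.94 (SE 0.37, n = 3) was not called (limma adjusted p = 0.166), but it was called without pair C (0.0306).

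**Figure D4:**
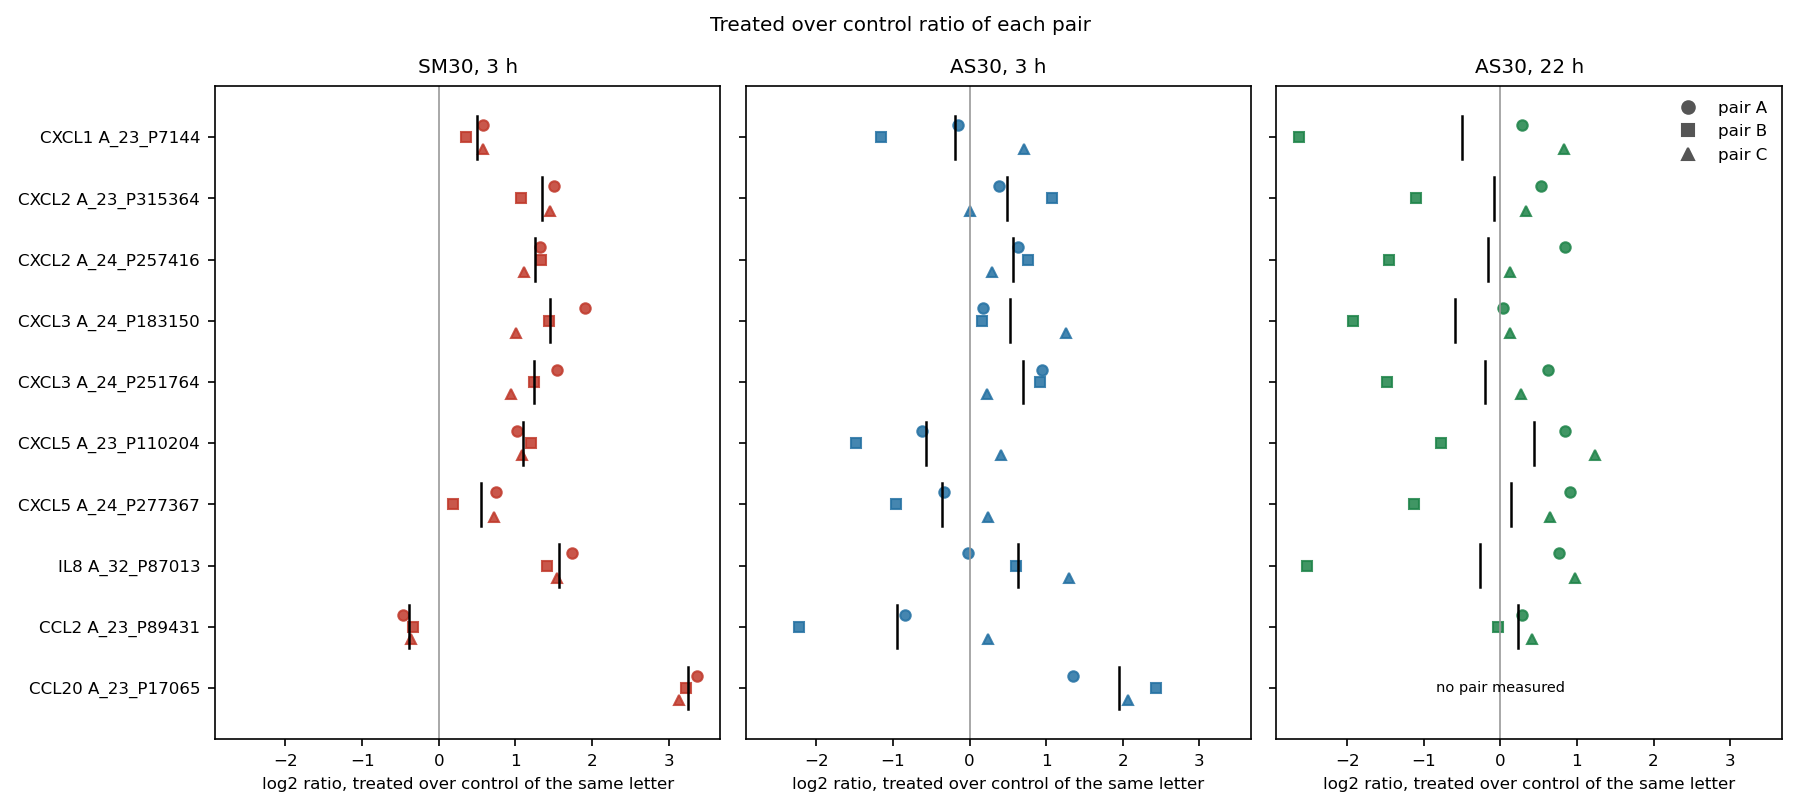
Log2 ratio of treated over control array of the same letter for each member probe, in SM30 at 3 h, AS30 at 3 h and AS30 at 22 h, with 1 symbol per pair. The SM30 pairs lie close together, the AS30 pairs spread more widely, and the pair B at 22 h is the lowest for all 8 CXC probes.

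SM30 and AS30 were tested at the same dose and recovery time, and the particles differ in diameter, 9 nm against 18 nm, among other properties. All 10 member probes, of 7 genes, had a higher log2 ratio after SM30 than after AS30, from 0.55 to 1.67. Over all probes this held for 46.5%, with a median difference of -0.03. For CCL2 both ratios were below 0 (-0.39 after SM30 and -0.94 after AS30). Its difference of 0.55 ranged from -0.09 to 1.15 when 1 pair was left out. Of the member probes 0 were called by limma, against 0.014% of all probes. The lowest adjusted p was 0.225, and 2 of the 10 had an unadjusted p under 0.05, against 14.6% of all probes. The difference was 1.30 for CCL20 (95% interval from 0.59 to 2.01, limma adjusted p = 0.225) and 1.67 for CXCL5 A_23_P110204 (0.35 to 3.00, 0.277). For IL8 it was 0.94 (-0.96 to 2.83, limma adjusted p = 0.623), for CXCL1 0.70 (-1.21 to 2.61, 0.723) and for CXCL2 A_23_P315364 0.86 (-0.15 to 1.87, 0.408). Differences of several-fold in either direction are therefore within the interval for CXCL1, while for CCL20 and the first CXCL5 probe the unadjusted interval lies above 0. An F-test over the 3 classes called 0 of the 9 member probes it could test, against 0.0855% of all probes, with 2 of them at an unadjusted p under 0.05, as were 19.3% of all probes (CXCL2 A_23_P315364 and CXCL3 A_24_P183150).

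After 22 h of recovery from AS30, no member was called. Of 9 probes tested 0 were called, against 3.58% of all probes called in either direction and 2.54% called higher, and 0 had an unadjusted p under 0.05, against 22.9% of all probes. The log2 ratios ranged from -0.59 to 0.44, with a median of -0.16. The lowest limma adjusted p was 0.419. IL8 gave 8.45, 5.60 and 7.84 in AS30 A, B and C and 7.69, 8.12 and 6.86 in the controls. CXCL1 gave 13.83, 11.19 and 12.99 against 13.54, 13.81 and 12.16, and CXCL2 A_23_P315364 gave 12.69, 10.89 and 12.80 against 12.16, 11.99 and 12.46. In each of these genes AS30 B was the lowest of the 6 arrays, and IL8 was not well above background there. CXCL3 A_24_P183150 gave 8.83, 7.05 and 8.34 against 8.80, 8.98 and 8.22, again with AS30 B lowest. CXCL5 A_23_P110204 gave 12.20, 10.01 and 11.19 against 11.35, 10.79 and 9.95, where AS30 A and C lay above 2 of 3 controls or more and AS30 B did not. The log2 ratios of these probes were -0.59 for CXCL3 (SE 0.40, n = 3) and 0.44 for CXCL5 (SE 0.41).

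Pair B lay apart from pairs A and C for all ELR genes at 22 h. The mean log2 ratio over CXCL1, CXCL2, CXCL3, CXCL5 and IL8 was 0.62 in pair A, -1.77 in pair B and 0.61 in pair C. The ratio of IL8 was 0.76, -2.52 and 0.98 in the 3 pairs, and that of CXCL1 was 0.29, -2.62 and 0.83. The corresponding means were 1.22, 0.86 and 1.05 after SM30 and 0.17, 0.10 and 0.50 after AS30 at 3 h. Without pair B the 22 h ratio of IL8 was 0.87 and that of CXCL1 was 0.56, both still not called. The share of spots well above background was 56.9% on AS30 B at 22 h and 51.9% on its control, within the range of the other arrays or at its lower end. The part of array quality in these ratios was not tested. Against the 1 control on their own slide (C), the 3 treated arrays at 22 h differed on average by 0.51 for CXCL1, 0.44 for IL8, -0.33 and -0.46 for CXCL2, -0.15 and -0.29 for CXCL3, 1.18 and 0.68 for CXCL5, and 0.64 for CCL2.

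CCL2 had the smallest SD of the 3 ratios at 22 h among the members (0.23). Its log2 signal was 12.20, 12.45 and 11.99 in AS30 and 11.91, 12.49 and 11.57 in the controls, a ratio of 0.22 (SE 0.37, n = 3, limma adjusted p = 0.758). Comparing AS30 at 22 h with AS30 at 3 h, 0 of 9 member probes were called by limma, against 0.0285% of all probes, and 0 had an unadjusted p under 0.05, against 16.9%. The difference in CCL2 ratios was 1.17 (95% interval from -0.01 to 2.35, limma adjusted p = 0.302), the lowest adjusted p of the members.

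The members outside this filter were dim. CCL5 (RANTES, A_23_P152838, chr17:31223445-31223504, hg18, minus strand), which attracts T cells and monocytes, was well above background on 8 of 18 arrays, all of them treated. With all spots kept, its log2 signal was 5.72, 5.81 and 5.60 after SM30 and 3.35, 2.86 and 2.77 in the controls. AS30 gave 4.94, 6.48 and 6.04 against 3.08, 3.37 and 4.34 at 3 h, and 6.02, 4.94 and 6.20 against 4.63, 3.79 and 2.84 at 22 h. All 9 control arrays, and AS30 B at 22 h, lay below the dimmest signal well above background on their own array, so no order is read among them.

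Since no control array measured CCL5 well above background, its rise is given as a bound. It was at least 2.96-fold higher after SM30 and at least 1.27-fold higher after AS30 at 3 h (3 of 3 treated and 0 of 3 control arrays well above background in both), and at 22 h, with 2 of 3 against 0 of 3, no fold can be given. For these bounds the treated mean was set against a control mean in which each array contributed its dimmest signal still called well above background, or the CCL5 signal itself if brighter. When no flag filter was used, CCL5 was called after SM30 (limma adjusted p = 0.0236), and not after AS30 at 3 h (0.0775) or 22 h (0.0846). These tests used control signals not well above background, so their ratios are not given.

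The CXCR3 ligands were not detected. CXCL10 (A_24_P303091, chr4:77161958-77162017, hg18) and both CXCL11 probes (A_23_P125278, chr4:77174639-77174698, and A_24_P20607, chr4:77175291-77175446) were well above background on 0 of 18 arrays, in treated and control groups alike. A change below the limit of the arrays, which lay between 3.56 and 6.47 log2 units depending on the array, would not be seen for these genes. The second probe named IL8 (A_23_P89380) is placed on chromosome 17 (chr17:39682083-39682142, hg18), away from the IL8 gene on chromosome 4, and was well above background on 1 of 18 arrays, a 22 h control. It was therefore left out of the account of IL8.

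The control groups were compared with each other because each treated group was read against its own. The SM30 and AS30 controls at 3 h differed in 0 of 10 member probes (lowest limma adjusted p = 0.48), although 26.8% of all probes were called between them, and 0 members against 39.1% of all probes had an unadjusted p under 0.05. Between 3 h and 22 h, the AS30 controls differed in 1 of 9 member probes, against 1.3% of all probes called and 0.795% called lower. This was CCL2, whose log2 signal was 14.37, 14.06 and 12.88 in the controls at 3 h and 11.91, 12.49 and 11.57 at 22 h. All 22 h controls lay below all 3 h controls, with a log2 difference of -1.78 (SE 0.40, limma adjusted p = 0.0463), a call lost with slide as a fixed block. IL8 differed by -2.36 (SE 0.57) without passing the test (limma adjusted p = 0.0584). The CCL2 call was also lost without 3 h control A (0.139) or B (0.141) or without 22 h control A (0.0762), B (0.0569) or C (0.136), and without 3 h control C both CCL2 (0.00799) and IL8 (0.0198) were called. CCL20 was missing on all 3 controls at 22 h.

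The genes around these chemokines were described from fixed lists, by 1 probe per gene. Among 15 subunits, inhibitors and targets of NF-kB, the median log2 ratio after SM30 was 0.72, against -0.05 over all probes. Of these genes, 9 were called higher and 0 lower, against 4.35% of all probes called higher. They included ICAM1, the leukocyte adhesion molecule (2.39), TRAF1, a signalling adaptor (2.23), SOD2, the mitochondrial superoxide dismutase (1.93), TNFAIP3, a feedback inhibitor (1.71), and the subunits NFKB1 (0.72) and RELB (0.73), all as log2 ratios. NFKBIA, the main inhibitor, was not called (0.31). After AS30 at 3 h 2 of 15 were called higher (SOD2 1.47, TRAF1 0.88), and at 22 h 1 of 15 (SOD2 1.58), the medians being 0.33 and 0.47. Of all probes, 1.5% were called higher at 3 h and 2.54% at 22 h. Between the 3 h control sets, 6 of 15 were called lower in the SM30 controls than in the AS30 controls, with a median of -0.45. Over all probes, 26.8% were called between these sets in either direction. TRAF1, for example, had a mean log2 signal of 10.87 after SM30 and 10.64 after AS30, against 8.64 and 9.76 in their controls, and the part of the control difference in the SM30 count was not tested. Between the AS30 controls of 3 h and 22 h, 8 of 15 were called lower at 22 h, against 0.795% of all probes, with a median of -0.90.

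Cytokines that induce chemokines in epithelium were called higher after SM30 in 2 of 6 genes tested, against 4.35% of all probes, with a median of 1.77. These were TNF (1.81, with 1 of 3 controls well above background) and CSF2, which encodes GM-CSF (1.73). IL1B (1.99, limma adjusted p = 0.173) and IL6 (1.97, 0.132) had ratios of like size and were not called. None of the list was called after AS30 at 3 h (0 of 6) or 22 h (0 of 5), where the medians were 0.29 at both times. In either direction, 2.52% and 3.58% of all probes were called at these times. Of the other CXC chemokines 0 of 3 tested, and of the other CC, CX3C and XC chemokines 0 of 8 tested, were called in any of the 3 classes. Their medians after SM30 were -0.05 and -0.06. The share of all probes called in either direction after SM30 was 7.49%.

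Of 22 chemokine receptor genes on the array, 9 had a probe that passed the filter and 10 were well above background on 0 arrays. The latter included CXCR2, CCR6 and CCR1, whereas CXCR1 and CCR2 were well above background on 1 array each. CXCR3, the receptor of CXCL10 and CXCL11, was well above background on all 18 and was not called in any class. After SM30 CCRL2, an atypical receptor, was called higher (at least 2.44-fold, 0 of 3 controls well above background), and XCR1 (-0.88) and CCR7 (-0.79) were called lower. Among all probes, 7.49% were called after SM30 in either direction. CCRL2 was the 1 receptor called after AS30 at 3 h, also with 0 of 3 controls well above background, and no fold can be given. For all probes the share called after AS30 at 3 h was 2.52%.

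Of the interferon pathway genes, several of which share their induction with CXCL10 and CXCL11, 0 of 13 tested were called higher after SM30 and 2 lower, among them IFIT1 (-0.83), with a median of 0.23. After SM30, 7.49% of all probes were called in either direction and 4.35% were called higher. At 22 h after AS30 4 of 13 were called higher, namely IFIT2 (1.98), IFIT1 (1.56), STAT2 (0.87, with 1 of 3 controls well above background) and IFIT3 (at least 1.70-fold, 0 of 3 controls well above background), with a median of 0.52 against 0.00 over all probes. The share of all probes called higher there was 2.54%. Of 7 genes that act on the decay of AU-rich mRNAs, 1 was called after SM30, ZFP36 (0.97), which encodes tristetraprolin, and the median was -0.18.

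Across the 9 ratios, 17968 probes well above background on all arrays were compared with the mean of the 5 ELR genes. The measure was the root mean square (RMS) difference in log2, with a median of 1.00 over these probes. The most alike were those of ARID5B (0.37), C6orf141 (0.38), ATF3, a stress-induced transcription factor (0.42), IL11, an IL6-family cytokine (0.45), and an unnamed probe, A_32_P173922 (0.47). Among the closely related CXCL1, CXCL2 and CXCL3, the most similar pair of probes was CXCL2 A_24_P257416 and CXCL3 A_24_P251764, which differed by 0.18. The 2 probes of CXCL2 differed by 0.28 and the 2 probes of CXCL3 by 0.58. The CXCL3 probes thus disagreed with each other more than 1 of them did with CXCL2, and which transcript each reads is uncertain. CXCL1 differed from every CXCL2 and CXCL3 probe by 0.84 or more.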

How the data were processed

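Gene expression of A549 cells was measured on 18 one-colour arrays, and groups and letters follow the labels. The authors deposited 1 scanner file per array (Agilent Feature Extraction 10.5.1.1) with linear spot intensities, and a table of linear intensities after their quantile normalization and spot averaging, used as an alternative. From the scanner files, log2 processed signals of 43376 non-control spots were quantile normalized over the 18 arrays, spots without the positive and significant flag were set to missing, outlier spots were left out, replicate spots were averaged in log2 and probes with over 33% missing values were removed, leaving 28665 of 41000. Signals near background lose precision at the filter, and the number of arrays limits precision throughout.

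Ratios of treated over control of the same letter (the corresponding control of the study's methods) were fitted as 3 classes with limma 3.58.1 in R 4.3.3 (with statmod 1.5.0 and data.table, version 1.17.8), with Benjamini-Hochberg adjustment over all probes tested at 0.05. The residual degrees of freedom were 6 for a probe with all 9 ratios measured and fewer where ratios were missing, as for CCL20. Control groups were compared in a fit of 18 arrays in 6 groups. The fit was tested on simulated data. Every member probe was named, with up to 3 genes per list and contrast (the largest ratios among those called with 1 sign in all 3 pairs) and the 5 probes most like the ELR mean. Named outside this rule, after their values were seen, were TNFAIP3, NFKB1, RELB, NFKBIA, IL1B, IL6, STAT2, CCRL2, the undetected receptors and CXCR3. For a list gene the probe with the highest mean signal was used. Some list genes are counted but not reported here by name. The members and lists were chosen with earlier results of these data known. Probe positions are those of the scanner files (hg18), and promoter sequences are from RefSeq. Alternatives were other normalization, background correction and filters, the authors' intensities, fits without pairing or with slide, and leaving out each pair.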

Additional observations from a re-analysis of the deposited data

How the results depend on the processing

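After SM30, 2 member probes were called in the fit reported. The number was 6 with normexp background correction, 4 with only probes well above background on all 18 arrays (which leaves out CCL20 and IL8), 4 with slide as a random block, 1 (CCL20) with slide as a fixed block, 7 when the 3 controls were averaged before the ratio and 7 with each class fitted alone, an alternative chosen after seeing the data. With averaged controls the 3 ratios of a class shared 1 control mean, so the spread of the controls did not enter their error. The counts over all probes for that setting are given below. For the normexp, well-above-background, random-block and unpaired settings, the count over all probes after SM30 is not given. Their member counts are therefore not read as a change particular to the members. Leaving out 1 pair gave 1 to 6. In the fit with slide as a random block, the correlation of arrays within a slide was estimated at -0.08. Arrays of a slide were thus not more alike than others, and that fit removed no variation shared by a slide. After AS30 at 3 h, 1 probe was called, and 0 with no flag filter, 0 with only probes well above background on all arrays, 0 with slide as a fixed block (where CCL20 could not be estimated), 0 with each class fitted alone, 2 with ratios over the mean of controls (CCL2 and CCL20) and 0 to 2 without 1 pair. At 22 h no setting called a member. Between SM30 and AS30, and in the F-test, ratios over the mean of controls called 1 probe each (CXCL5 and CXCL3), and no other setting called any. For the 22 h against 3 h controls, 1 probe (CCL2) became 2 with slide as a random block (with IL8) and 0 with slide as a fixed block, and 0 to 2 without 1 control array, the last 2 settings being added after seeing the data. The cause was not tested.

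The letters were taken as pairs from the study's methods. The deviations of same-lettered arrays from their group means correlated from -0.09 to 0.48, above 0.1 for all 3 letters in AS30 at 22 h and not for all in SM30 or AS30 at 3 h. With no replicate block (18 arrays as 6 groups), 4 member probes were called after SM30, and this fit moved no other count of members. Over all probes, the count called after SM30 went from 2146 to 333 with slide as a fixed block, 1292 with no flag filter, 9454 over the mean of controls and 289 to 2721 without 1 pair. For AS30 at 3 h it went from 720 to 0 with each class fitted alone, 274 with no flag filter, 1313 with no replicate block, 52 and 3931 with slide as a fixed and random block, 9885 over the mean of controls and 81 to 3060 without 1 pair. At 22 h it went from 1008 to 0, 508, 29 and 1922 under the same settings bar the unpaired one, 8786 over the mean of controls and 2 to 1364 without 1 pair. The counts between classes (4, 8 and 24 by the F-test) went up to 5432, 5903 and 9645 over the mean of controls and down to 0 without some pairs, and that between the controls of 3 h and 22 h went from 366 to 189 with slide as a fixed block and 195 to 1557 without 1 array. The ratio of a single probe changed sign under no alternative that called it or had called it. Some ratios that were not called did change sign when 1 pair was left out. Examples are CXCL1 in AS30 at 3 h (from -0.65 to 0.28) and IL8 in AS30 at 22 h (from -0.88 to 0.87). Signal over background limits CCL5, CXCL10, CXCL11 and the 22 h values of CCL20.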
